A study of Mus musculus with 11 samples.

Results

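The proteasome genes were taken as every row of the gene count table whose symbol begins with Psm, a letter from a to g and a number, which gave 49 of the 12647 genes listed. They comprise 8 alpha and 7 beta genes of the core particle, the 3 immunoproteasome genes Psmb8, Psmb9 and Psmb10, 9 genes of the base and 8 of the lid of the regulatory particle, 3 chaperones of base assembly, 5 activator genes, the inhibitor gene Psmf1 and 4 chaperones of core assembly. The remaining gene, Psmc3ip, meets the symbol rule but encodes a meiotic recombination factor that binds the Psmc3 protein and is no proteasome subunit. All 49 genes passed the filter on low counts.

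The proteasome is the large protease that degrades proteins tagged with ubiquitin. Its core particle is a barrel of stacked alpha and beta rings, and the beta subunits Psmb5, Psmb6 and Psmb7 carry the chymotrypsin-like, caspase-like and trypsin-like active sites. The base, a ring of the ATPases Psmc1 to Psmc6 with the scaffold subunits Psmd1 and Psmd2, unfolds substrates and opens the gate of the core, and the lid removes the ubiquitin chain. In blood cells the catalytic subunits can be replaced by their interferon-inducible counterparts Psmb8, Psmb9 and Psmb10, which form the immunoproteasome and shape the peptides presented on MHC class I molecules. Protein turnover is known to bear on blood stem cells, which keep protein synthesis low.

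RNA was sequenced from Lin-Sca1+Kit+ cells (LSKs), the bone marrow fraction that holds stem cells and early progenitors, of young adult C57BL/6 mice of 3 genotypes with 3 libraries each. The p53+/+ mice, labelled wild type, carried the humanized HUPKI allele, a chimeric gene whose protein is mostly human p53 with mouse ends. The p53R248W/+ mice carried the R248W missense mutation in 1 such allele, expressed from the mouse Trp53 promoter in all cells, and the p53-/- mice lacked p53; whether the null mice carried any HUPKI sequence is not given in the sources used here. The sources do not say whether each library came from 1 mouse or from a pool, so p-values measure the spread between these libraries, which may in part be technical.

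The libraries held 18021375 to 29750702 counts over the listed genes. The deepest, p53R248W/+ #1, stood apart from the other libraries of its genotype in most proteasome genes, so values without it are given where a result rests on it. All 9 LSK markers were detected. Of 7 granulocyte and monocyte markers, 6 were in the table (Ly6g was not), and their summed level, in CPM (counts per 1000000 counts of the scaled library), was 1948 to 5038 in p53+/+, 3496 to 7304 in p53R248W/+ and 1386 to 1633 in p53-/- libraries. The 7 proliferation markers summed to 1918 to 2452, 2012 to 2239 and 1308 to 1881 CPM in the same order. Among the granulocyte and monocyte markers, S100a8 and S100a9 stood at 799 and 674 CPM in p53+/+ #2 and at 548 and 470 in p53R248W/+ #2. In the other libraries they reached at most 44.3 and 34.6 CPM. The part of this in differences between libraries was not tested. The summed levels of erythroid, B lymphoid and T and NK lymphoid markers reached at most 81.1, 21.0 and 10.5 CPM in any library, and those of 3 megakaryocyte markers 80.1 to 144. Trp53 itself had 125, 207 and 376 CPM in p53+/+, 219, 240 and 235 in p53R248W/+ and 129, 127 and 112 in p53-/- libraries, so that its level in p53+/+ #1 lay within the range of the null libraries; reads from a partly human allele and from a null allele can both be lost or kept in such a count, which therefore checks the labels poorly. Cdkn1a, a p53 target that halts the cell cycle, named after its values were seen, had 35.7 to 67.0 CPM in the 6 libraries with a p53 allele, p53+/+ #1 included, and 8.27 to 17.8 CPM in the p53-/- libraries.

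The proteasome genes were among the most abundant mRNAs of LSKs. By level per gene length (CPM per kilobase, averaged over 9 libraries), 40 of the 49 genes lay above 90% of the 12625 genes tested and 46 lay above 50%. In p53+/+ LSKs the core groups had the highest median levels after the immunoproteasome genes. The 7 widely used alpha genes lay between 215 ± 43.2 (SD, n = 3) CPM per kilobase for Psma5 and 424 ± 73.1 for Psma2. The beta genes ran from 156 ± 26.4 for Psmb7, the trypsin-like subunit, to 443 ± 72.6 for Psmb2, a subunit without an active site. The eighth alpha gene, Psma8, is the testis form that replaces Psma7 in male germ cells, and it was near the floor of the family at 5.85 ± 1.13 CPM per kilobase, against 321 ± 68.8 for Psma7.

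Genes of the regulatory particle lay lower per length than most core genes, with median levels of 140 for the base and 142 for the lid against 359 for the beta genes. The base ranged from 81.8 ± 7.85 CPM per kilobase for the ATPase Psmc6 to 189 ± 30.6 for the ATPase Psmc3, and the lid from 88.0 ± 13.7 for Psmd12, a structural subunit, to 179 ± 27.9 for Psmd8. Psmd14, the lid enzyme that cuts off the ubiquitin chain, was at 174 ± 29.8. The base chaperones, which escort the ATPases during assembly and leave the finished particle, were scarcer, with 83.3 ± 2.62 for Psmd5, 46.4 ± 6.96 for Psmd10 and 22.5 ± 3.03 for Psmd9. The core chaperones Psmg1 to Psmg4 lay together, between 85.1 ± 22.0 for Psmg3 and 102 ± 22.3 for Psmg2.

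The activators spanned a wide range. Psme1 and Psme2, the interferon-inducible subunits of the PA28 cap, stood at 447 ± 67.7 and 312 ± 66.3 CPM per kilobase, Psme3, the nuclear PA28 gamma subunit, at 120.2 ± 17.7, and Psme4, the large PA200 activator, at 7.69 ± 0.967. Psme2b, at 7.74 ± 1.57, is a near-identical copy of Psme2, and reads could have been split between them, so its level is uncertain. Psmf1, an inhibitor that binds the core, was at 22.2 ± 0.796 and was the steadiest member, with the highest of its 9 libraries 1.16-fold above the lowest. Its values were 78.2, 82.1 and 76.6 CPM in p53+/+, 75.0, 77.1 and 74.0 in p53R248W/+ and 74.5, 76.7 and 85.5 in p53-/- libraries, so that the 3 genotypes overlapped. Exons of Psmf1, Psme1, Psme4, Psme2b, Psmd10, Psmb5, Psma4 and Psmc3ip overlap those of another gene, and whether the counting used strand is not given in the sources used here, so that some of their reads could come from the neighbour.

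**Figure D1:**
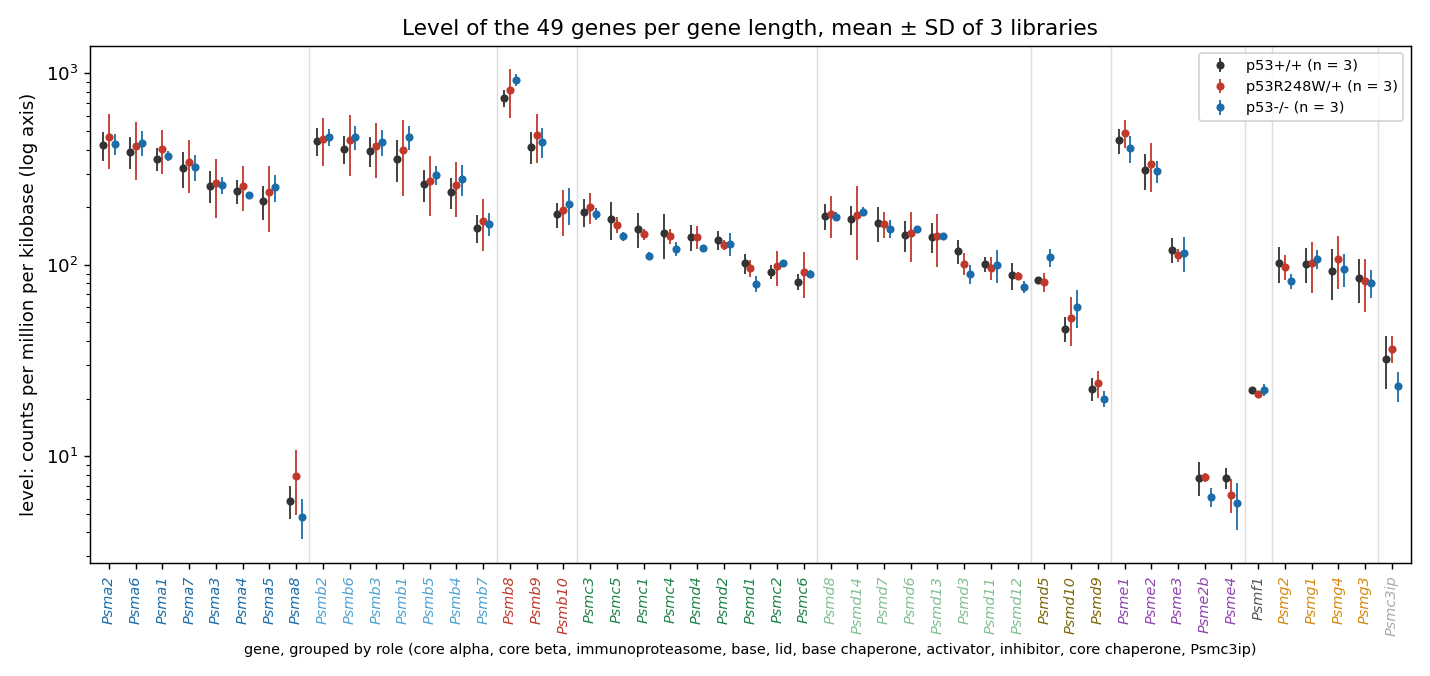
Level of each of the 49 genes, in CPM per kilobase of gene length on a log axis, as the mean ± SD of 3 libraries for p53+/+ (black), p53R248W/+ (red) and p53-/- (blue), with genes grouped by role and ordered by their level in p53+/+. Psmb8 is the highest gene at 745 ± 73.2 in p53+/+, and Psma8, Psme2b and Psme4 lie below 10 in all 3 genotypes.

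The immunoproteasome gene Psmb8, which encodes the inducible counterpart of Psmb5, was the most abundant member per length in each genotype, above 99.5% of genes tested. It had 955, 808 and 969.9 CPM in the p53+/+ libraries, 1314, 924 and 762 in the p53R248W/+ libraries and 1060.0, 1221 and 1121 in the p53-/- libraries. The 3 p53-/- values lay above all p53+/+ values, while the p53R248W/+ values spanned both. Its constitutive counterpart Psmb5 had 236, 182 and 271 CPM in p53+/+, 335, 198 and 186 in p53R248W/+ and 249.9, 290.2 and 232 in p53-/- libraries, with overlap between all genotypes. Psmb9, which takes the place of Psmb6, had 269 to 394 CPM in p53+/+, 313 to 512 in p53R248W/+ and 309 to 428 in p53-/- libraries. Psmb10, which takes the place of Psmb7, had 194 to 255, 198 to 321 and 228 to 329.8 CPM in the same order, and both genes overlapped between all genotypes.

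Psmb8 and Psmb9 are neighbours in the MHC region of chromosome 17, at positions 34198195-34201454 and 34182030-34187330 of build GRCm38, whereas Psmb10 and the constitutive genes are dispersed. The 250 bases before the start given in the promoter table for the 3 immunoproteasome genes and 2 constitutive genes are shown because inducible and constitutive genes are known to be read by different factors; they are RefSeq sequence of GRCm38.p6, 5′ to 3′ on the strand of the gene. Psmb5 lies at chr14:54617996-54618245 (minus strand), Psmb6 at chr11:70525107-70525356 (plus), Psmb8 at chr17:34197945-34198194 (plus), Psmb9 at chr17:34187331-34187580 (minus) and Psmb10 at chr8:105938393-105938642 (minus); Psmb7 had no entry. The Psmb6 window ends 33 bases inside the annotated bounds of that gene, which begin at 70525324, and the other 4 windows end where the annotated gene begins. Capitals mark matches, on either strand, to 4 motifs: the antioxidant response element (TGACNNNGC), read by Nfe2l1 and Nfe2l2, the interferon regulatory factor element (GAAANNGAA), the interferon-gamma activated site (TTCNNNGAA) and the CCAAT box (CCAAT).
Psmb5: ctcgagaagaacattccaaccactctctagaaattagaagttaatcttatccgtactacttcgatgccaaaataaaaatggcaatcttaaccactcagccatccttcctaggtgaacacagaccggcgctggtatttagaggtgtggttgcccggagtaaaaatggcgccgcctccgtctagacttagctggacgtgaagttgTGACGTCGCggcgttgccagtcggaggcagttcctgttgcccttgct
Psmb6: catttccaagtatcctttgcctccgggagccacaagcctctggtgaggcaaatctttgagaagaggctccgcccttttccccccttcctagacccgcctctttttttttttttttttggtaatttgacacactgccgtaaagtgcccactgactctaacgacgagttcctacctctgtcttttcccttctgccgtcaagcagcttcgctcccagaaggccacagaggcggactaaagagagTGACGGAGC
Psmb8: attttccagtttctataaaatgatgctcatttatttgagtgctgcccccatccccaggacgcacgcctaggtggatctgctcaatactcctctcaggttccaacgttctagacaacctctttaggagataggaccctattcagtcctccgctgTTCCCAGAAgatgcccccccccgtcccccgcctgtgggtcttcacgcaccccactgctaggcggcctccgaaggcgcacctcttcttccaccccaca
Psmb9: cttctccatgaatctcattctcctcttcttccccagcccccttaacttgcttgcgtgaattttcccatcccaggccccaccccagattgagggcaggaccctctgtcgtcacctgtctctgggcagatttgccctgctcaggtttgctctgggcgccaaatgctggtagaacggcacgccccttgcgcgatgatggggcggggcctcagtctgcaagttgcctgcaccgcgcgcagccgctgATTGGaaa
Psmb10: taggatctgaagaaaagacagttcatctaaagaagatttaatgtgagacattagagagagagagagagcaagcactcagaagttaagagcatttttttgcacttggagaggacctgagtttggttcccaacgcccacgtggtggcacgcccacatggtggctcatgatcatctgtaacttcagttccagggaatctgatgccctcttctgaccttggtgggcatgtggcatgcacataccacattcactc

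The antioxidant response element occurred in the windows of Psmb5, at bases 47 to 39 from the window's end, and of Psmb6, at bases 9 to 1 from its end and thus within the annotated gene, and in none of the 3 immunoproteasome windows. Psmb8 held 1 interferon-gamma activated site at bases 97 to 89 from the end, Psmb9 a CCAAT box on the opposite strand at bases 8 to 4, and Psmb10 none of the 4 motifs. Of the 41 proteasome genes with an entry, 12.2% held the antioxidant response element, 7.32% the interferon regulatory factor element, 4.88% the interferon-gamma activated site and 34.1% the CCAAT box. The shares over all 27025 promoters of the same length, 1 per gene, were 10.1%, 7.16%, 7.18% and 34.5%. Over the 9960 of them whose genes are in the deposited table, the shares were 12.4%, 6.38%, 5.99% and 36.5%. No entry was given for Psmd3, Psmb1, Psma8, Psmg2, Psmb7, Psmc3, Psmb2 and Psmd7.

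Whether the balance of inducible and constitutive catalytic genes differed with genotype was asked from the ratio of counts per gene length within each library, which cancels library size. The ratio does not cancel the differences between libraries that follow gene length, described below. Psmb8 and Psmb5 have 1223 and 871 bases, Psmb9 and Psmb6 806 and 1036, and Psmb10 and Psmb7 1270 and 969. The part of length in the ratios was not tested. Psmb8 exceeded Psmb5 by 2.89-fold, 3.15-fold and 2.55-fold in the p53+/+ libraries, 2.79-fold, 3.32-fold and 2.91-fold in p53R248W/+ and 3.02-fold, 3.00-fold and 3.45-fold in p53-/-. Psmb9 and Psmb6 were nearly equal, with ratios of 1.12, 1.02 and 0.935 in p53+/+, 1.00, 1.14 and 1.08 in p53R248W/+ and 0.867, 0.981 and 0.984 in p53-/-. Psmb10 exceeded Psmb7 slightly, with ratios of 1.15, 1.22 and 1.17 in p53+/+, 1.11, 1.21 and 1.13 in p53R248W/+ and 1.07, 1.40 and 1.31 in p53-/-. The ranges of the 3 genotypes overlapped for Psmb8 over Psmb5 and Psmb10 over Psmb7, and for Psmb9 over Psmb6 the p53-/- values lay below all p53R248W/+ values. An exact permutation test of the F statistic over the 3 genotypes, two-sided, on the log2 ratio (1680 assignments of 9 libraries) gave p = 0.475, 0.182 and 0.493 for the 3 pairs, and 0.493 for each after Benjamini-Hochberg adjustment over the 3 pairs. Without p53-/- #1 the unadjusted exact p for Psmb10 over Psmb7 was 0.0143.

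**Figure D2:**
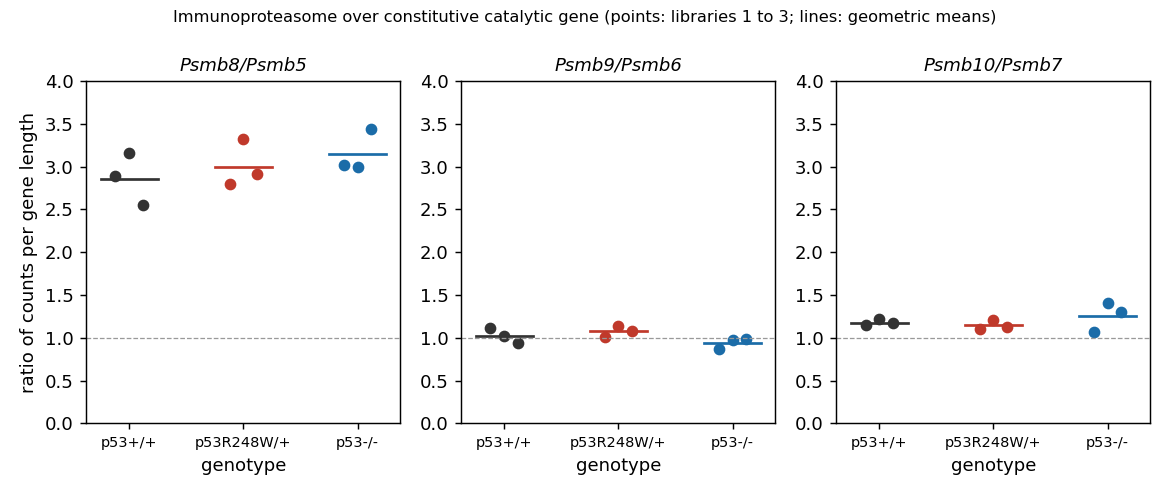
Ratio of counts per gene length of each immunoproteasome gene to its constitutive counterpart (linear axis from 0) in each of 9 libraries by genotype; points are libraries, lines are geometric means and the dashed line marks a ratio of 1. Psmb8 over Psmb5 lies between 2.55 and 3.45 in all libraries, while Psmb9 over Psmb6 and Psmb10 over Psmb7 lie between 0.867 and 1.40.

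No proteasome gene was called between p53R248W/+ and p53+/+ LSKs, and the differences were small beside the spread between libraries. None of the 49 genes passed an adjusted p of 0.05 in edgeR's quasi-likelihood test with Benjamini-Hochberg adjustment over 12625 genes, against 0.00792% of all genes called higher and 0% called lower. None had an unadjusted p below 0.05 either, against 0.958% of all genes, and DESeq2 and limma-voom likewise called 0 members. The log2 fold changes lay between -0.29 for Psme4 and 0.42 for Psma8, with a median of 0.07 against 0.01 over all genes, and 33 of 49 were above 0. The 95% interval of the log2 fold change lay within 1 log2 unit of 0 for 48 of the 49 genes, the exception being the low-count Psma8. In no member did the 3 libraries of one genotype lie wholly above or below those of the other, which 2.66% of all genes did upwards and 2.38% downwards.

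By role, all 15 core genes had log2 fold changes above 0 in p53R248W/+ (median 0.12). They ran from 0.04 for Psma3 and 0.04 for Psmb2 to 0.15 for Psmb6 and 0.42 for Psma8. The immunoproteasome genes stood at 0.13 ± 0.20 (SE) for Psmb8, 0.20 ± 0.23 for Psmb9 and 0.08 ± 0.22 for Psmb10. The base had a median of -0.05, with Psmc5 lowest at -0.10, and the lid 0.00, from -0.22 for Psmd3, a scaffold of the lid, to 0.07 for Psmd14. Psmd10, a base chaperone also known as gankyrin that binds the p53 regulator Mdm2, was at 0.19, Psme1 at 0.13 and the core chaperones between -0.07 for Psmg2 and 0.22 for Psmg4. The signs rested on the library p53R248W/+ #1: without it 2 of the 49 genes were above 0 and the median became -0.17, and without p53+/+ #2 15 were.

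In p53-/- LSKs, too, no proteasome gene passed the adjusted threshold, in a comparison where 1.25% of all genes were called higher and 2.25% lower. The unadjusted p was below 0.05 for 4 of the 49 genes, Psmc1, Psmd5, Psmd3 and Psmd1, against 23.4% of all genes. DESeq2 and limma-voom also called 0 members, with smallest adjusted p-values of 0.0791 and 0.144. The median log2 fold change was 0.01 against -0.00 over all genes, 25 of 49 genes were above 0, and the 95% interval lay within 1 log2 unit of 0 for 48 of them. The groups did not overlap for 3 genes that were higher in all p53-/- libraries (6.12%, against 15.4% of all genes) and 3 that were lower (6.12%, against 16% of all genes).

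The 3 genes lower in all p53-/- libraries belong to the base and the lid. Psmc1, an ATPase of the base (chromosome 12, 100110202-100123364), had 199, 207 and 286 CPM in p53+/+ libraries, 229, 215 and 202 in p53R248W/+ and 167, 173 and 159 in p53-/- libraries. The null libraries were below all others, and the log2 fold change against p53+/+ was -0.47 ± 0.17 (SE; edgeR adjusted p = 0.132). Psmd1, the largest base subunit and a docking site for ubiquitin receptors (chromosome 1, 86064619-86139295), had 292, 334 and 373 CPM in p53+/+, 344, 310.2 and 282 in p53R248W/+ and 283, 232 and 264 in p53-/- libraries. Its log2 fold change was -0.36 ± 0.16 (edgeR adjusted p = 0.209), and the p53R248W/+ values overlapped both other genotypes. Psmd3 (chromosome 11, 98682554-98695978) had 219, 249.8 and 290.0 CPM in p53+/+, 194, 249.5 and 209.7 in p53R248W/+ and 178, 182 and 217 in p53-/- libraries, a log2 fold change of -0.39 ± 0.17 (edgeR adjusted p = 0.196).

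The 3 genes higher in all p53-/- libraries were of different roles. Psmd5, the base chaperone that holds the ATPase Psmc2 during assembly (chromosome 2, 34852087-34870965), had 173, 164 and 173 CPM in p53+/+, 187, 159 and 151 in p53R248W/+ and 251, 215 and 204 in p53-/- libraries. The null libraries stood above all 6 others, with a log2 fold change against p53+/+ of 0.39 ± 0.16 (edgeR adjusted p = 0.160). Psmb8 had a log2 fold change of 0.32 ± 0.20 (edgeR adjusted p = 0.358). Psmc6 was separated by less than 1 CPM, its lowest null library having 136.3 CPM and its highest p53+/+ library 135.6, with a log2 fold change of 0.14 (edgeR adjusted p = 0.709).

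Over the groups, 7 of the 9 base genes were below 0 in p53-/- (median -0.20), and this rested in part on p53+/+ #3, in which Psmc1, Psmc4 and Psmc5 had 286, 274 and 279 CPM, above their values in every other library. Without that library the median of the base was -0.03. All 7 beta genes were above 0 (median 0.16), from 0.07 for Psmb2 to 0.37 for Psmb1, and the alpha genes ran from -0.28 for Psma8 to 0.24 for Psma5. Without p53+/+ #2 the median of the beta genes was 0.02. Psmb9 and Psmb10 were at 0.09 and 0.18. The activators were all below 0, from -0.43 for Psme4 to -0.02 for Psme2, the lid gene Psmd14 was at 0.13, and the core chaperones ran from -0.31 for Psmg2 to 0.09 for Psmg1. None of these genes passed the adjusted threshold. Psmb6 lies 933451 bases beyond the end of Trp53 on chromosome 11, and its values of 452, 338 and 466 CPM in p53+/+ overlapped those of 459, 561 and 426 in p53-/- libraries.

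Between p53R248W/+ and p53-/- LSKs, again 0 of the 49 genes passed, against 2.34% of all genes called higher in p53R248W/+ and 1.1% lower. DESeq2 and limma-voom called 0 as well, with smallest adjusted p-values of 0.0589 and 0.138. The p53R248W/+ mice are heterozygous and also carry 1 p53 allele without the mutation, so mutant p53 is not compared alone with its absence. This comparison shares its p53-/- libraries with the preceding one and its p53R248W/+ libraries with the first, so the 3 sets of values are not independent. The unadjusted p was below 0.05 for 3 genes (Psmd5, Psmc3ip and Psma8), against 21% of all genes, and the median log2 fold change was 0.04 against 0.02 over all genes. Psmd5 had a log2 fold change of -0.43 ± 0.16 (edgeR adjusted p = 0.142), the only member lower in all p53R248W/+ than in all p53-/- libraries (2.04%, against 12% of all genes). Without p53R248W/+ #1 it was the only member to pass, at -0.55 (edgeR adjusted p = 0.0458).

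Members higher in all p53R248W/+ libraries than in all p53-/- libraries numbered 6 (12.2%, against 12.1% of all genes). They were the ATPases Psmc1 (log2 fold change 0.37), Psmc4 (0.22) and Psmc5 (0.19), the lid gene Psmd12 (0.20), Psme2b (0.35) and Psmc3ip (0.65), with adjusted p-values from 0.157 to 0.591 in edgeR. Psmc4 had 175, 180.3 and 274 CPM in p53+/+, 222, 197 and 188 in p53R248W/+ and 177, 187 and 159 in p53-/- libraries, so that the lowest mutant library stood just above the highest null library. Psmc3ip, the recombination factor, had 25.1, 26.5 and 42.6 CPM in p53+/+, 41.8, 33.9 and 30.9 in p53R248W/+ and 18.9, 27.1 and 22.1 in p53-/- libraries. Psma8 had the largest log2 fold change, 0.70 ± 0.31 (edgeR adjusted p = 0.226), on 10.01 to 19.0 CPM in p53R248W/+ against 6.83 to 10.4 in p53-/- libraries, which overlapped. Without p53R248W/+ #1 it was 0.32. Within the core, the beta genes ran from -0.22 for Psmb1 to 0.04 for Psmb7 and Psma5 was the lowest alpha gene at -0.08. Without p53R248W/+ #1 Psmb1 was at -0.66 and Psma5 at -0.47, and the median of the beta genes moved from -0.07 to -0.41. Psmb8, Psmb9 and Psmb10 were at -0.18, 0.12 and -0.10. The lowest members of the lid, the activators and the core chaperones were Psmd6 at -0.07, Psme3 at -0.04 and Psmg1 at -0.08, and Psmg2 was the highest core chaperone at 0.25.

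**Figure D3:**
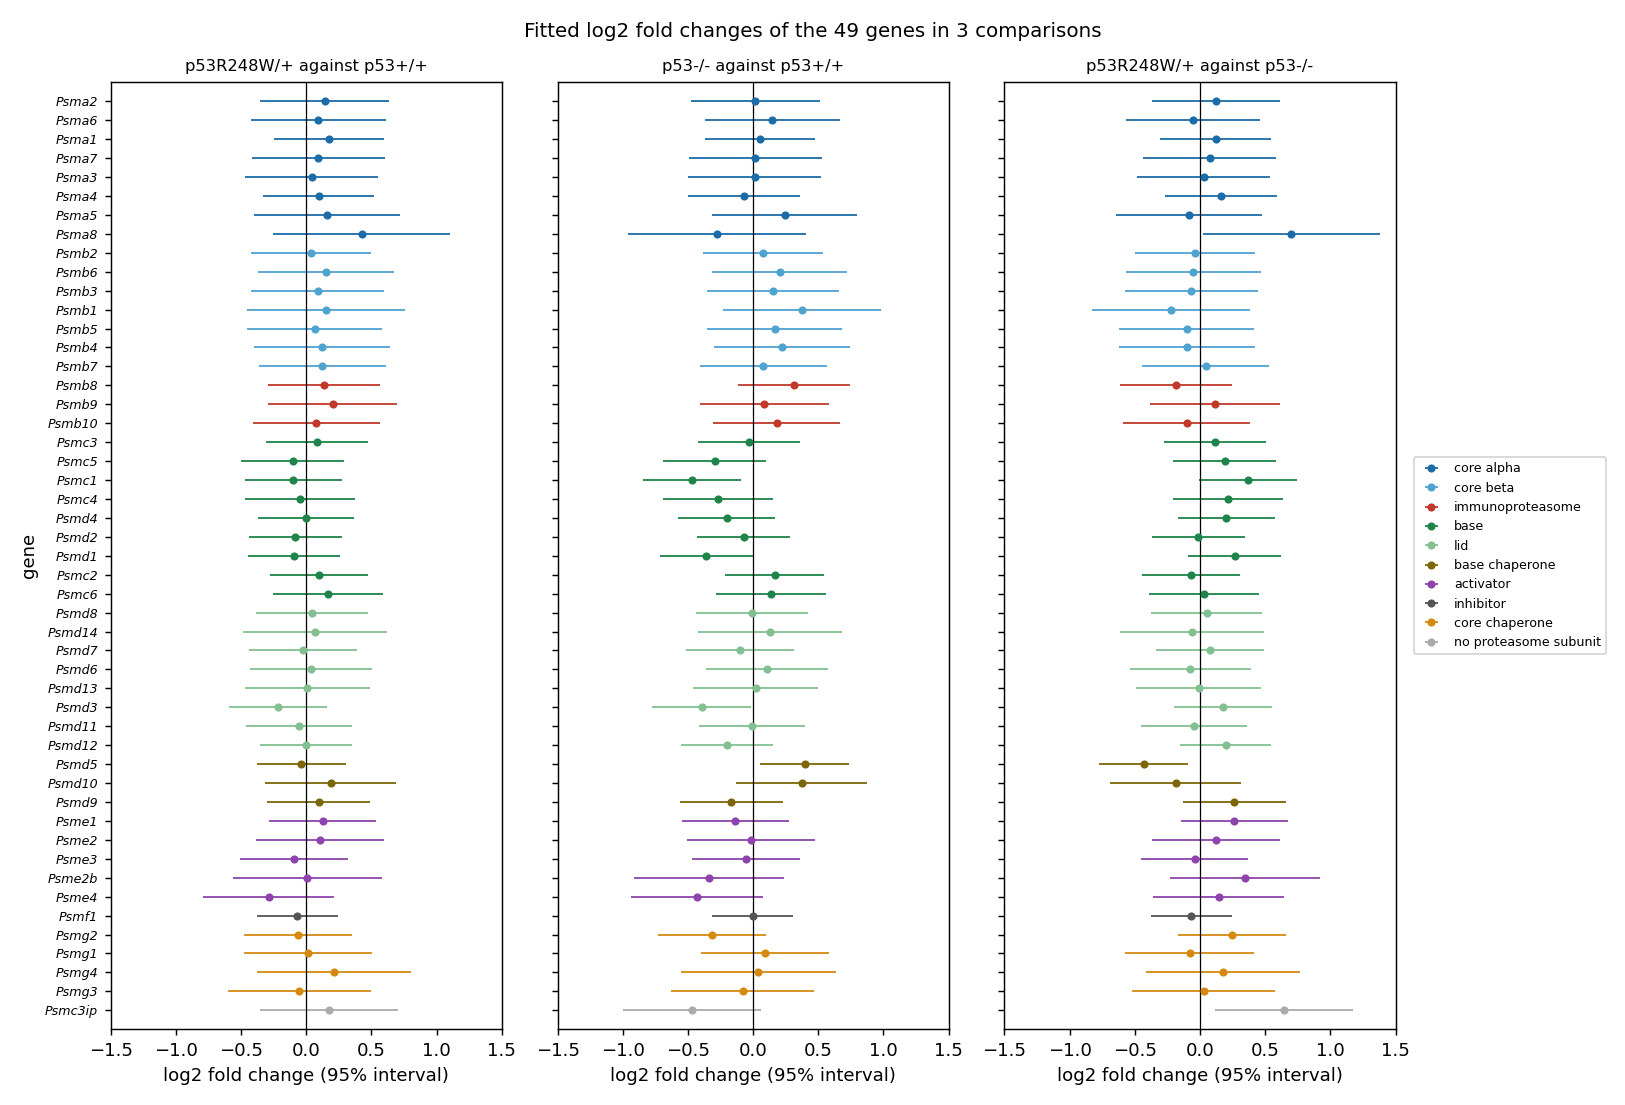
Log2 fold changes of the 49 genes in the 3 comparisons, with 95% intervals from the edgeR fit to 9 libraries, ordered by role (colours) and by level within each role. The interval lies within 1 log2 unit of 0 for 48, 48 and 47 genes, and no gene passes the adjusted threshold.

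The family varied between libraries of 1 genotype: the pooled SD of the library medians given next was 0.244 within genotypes. The median log2 fold changes between genotypes were 0.07, 0.01 and 0.04. These are another measure, in which roles of opposite direction offset each other, such as the base at -0.20 and the beta genes at 0.16 in p53-/- against p53+/+. p53R248W/+ #1 was the highest of the 9 libraries for 30 of the 49 genes (61.2%, against 17.4% of all genes), p53+/+ #3 for 14, and p53+/+ #2 was the lowest for 25 (51%, against 11.4% of all genes). The median difference of the 49 genes from their 9-library means, on the log2(CPM + 1) scale, was 0.42 in p53R248W/+ #1 and -0.11 and -0.21 in the other two p53R248W/+ libraries. It was -0.00, -0.27 and 0.19 in p53+/+ #1, #2 and #3 and -0.06, 0.12 and -0.08 in the p53-/- libraries. Summed over the 49 genes, the family took 1.5% of all counts in p53R248W/+ #1, and 1.05% to 1.35% in the other 8 libraries. Psmb1 shows the pattern, with 464, 279.8 and 373 CPM in p53+/+, 619, 320.2 and 302 in p53R248W/+ and 459, 559.8 and 429 in p53-/- libraries.

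**Figure D4:**
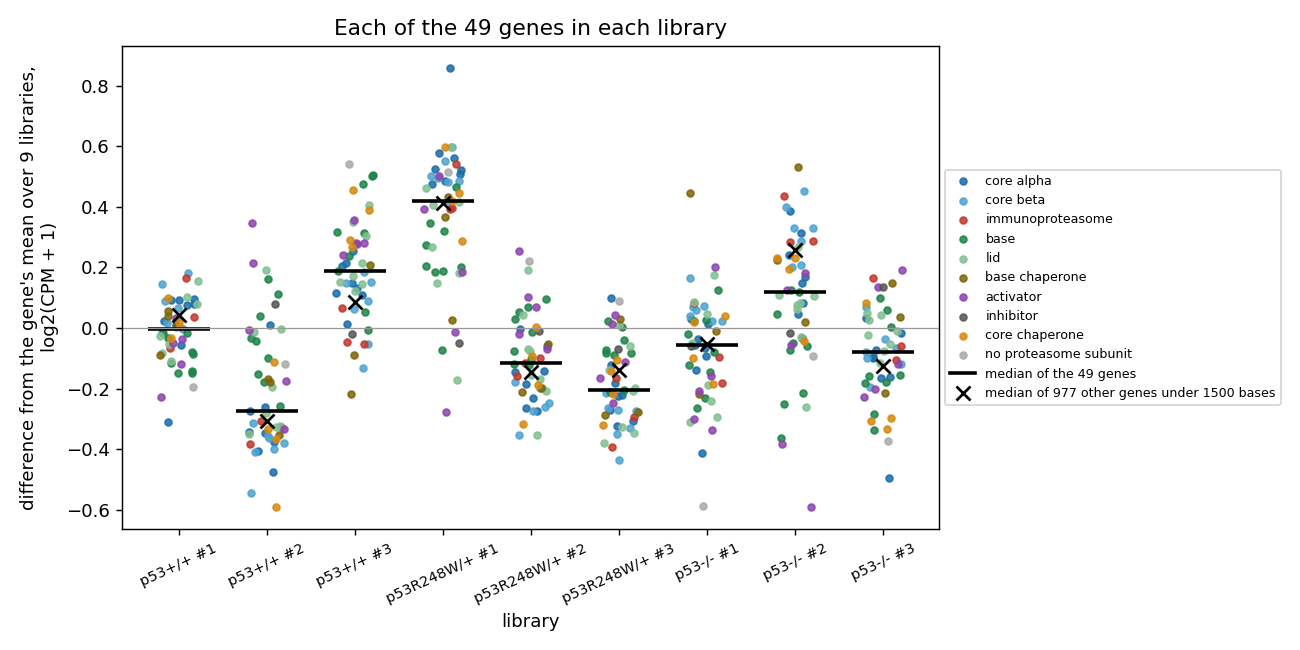
Difference of each of the 49 genes from its own mean over 9 libraries, on the log2(CPM + 1) scale, by library, with points coloured by role, bars at the median of the 49 genes and crosses at the median of 977 other genes shorter than 1500 bases with at least 50 CPM. The bar is highest in p53R248W/+ #1 at 0.42 and lowest in p53+/+ #2 at -0.27, and the crosses stand at 0.41 and -0.31 in these libraries.

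Gene length moved with this pattern. The proteasome genes are short, with a median length of 1296 bases (554 to 6442) in the deposited table, against 2866 over all genes tested. Among 977 other genes under 1500 bases with at least 50 CPM, the median difference was 0.41 in p53R248W/+ #1, -0.31 in p53+/+ #2 and 0.26 in p53-/- #2, and p53R248W/+ #1 was the highest library for 56.4% of them. Among 2203 other genes of 3000 bases and over, the same medians were -0.20, 0.18 and -0.20. Within the family the 14 genes under 1000 bases had a median of 0.50 in p53R248W/+ #1, whereas Psmd1, Psmd2 and Psmf1, of 3053 to 3559 bases, had a median of -0.05 and Psme4, of 6442 bases, was at -0.28. In p53+/+ #3 the members were above 0 in every length class (0.17 to 0.36), while other genes of the same classes lay between -0.03 and 0.11. The part of gene length, or of RNA quality, in these differences was not tested.

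**Figure D5:**
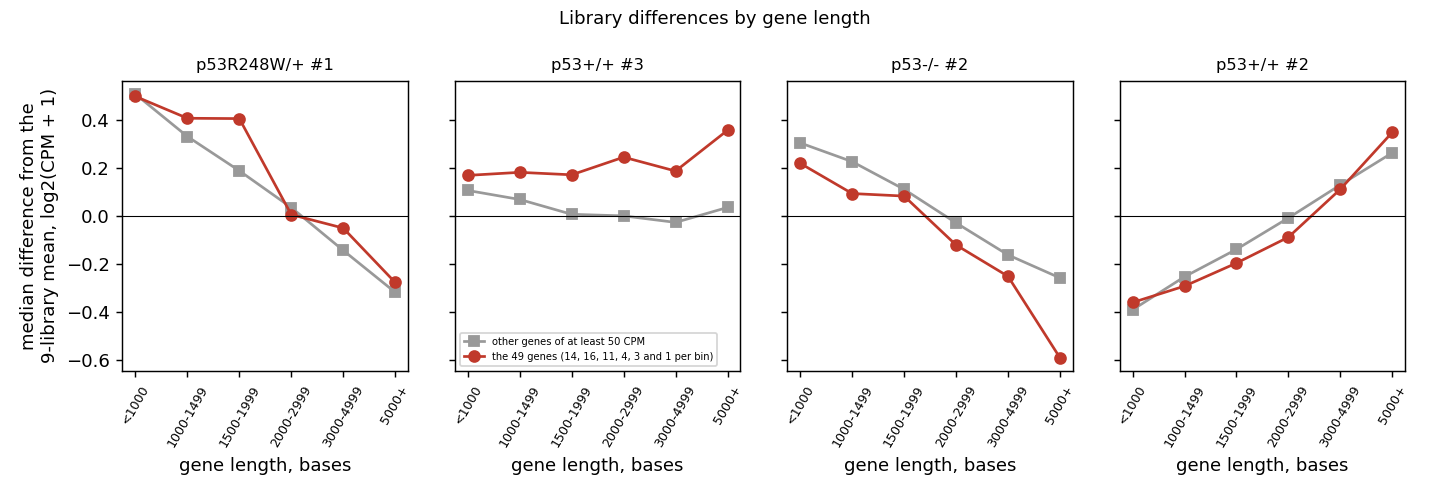
Median difference from the 9-library mean, log2(CPM + 1), by class of gene length in 4 libraries, for the 49 genes (red; 14, 16, 11, 4, 3 and 1 genes per class) and for other genes of at least 50 CPM (grey). Both lines decline from 0.50 and 0.51 under 1000 bases to -0.28 and -0.32 at 5000 bases and over in p53R248W/+ #1, rise in p53+/+ #2, and lie apart in p53+/+ #3.

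Roles differed from one another within a library. In p53+/+ #3 the 6 ATPase genes had a median difference of 0.36, the core chaperones 0.34 and the immunoproteasome genes -0.04. In p53-/- #2 the beta genes were at 0.33 and the immunoproteasome genes at 0.29, and the base genes were at -0.06. Psmd10 was the highest of its 9 values in p53-/- #2, with 110.0 CPM, and had 75.1 and 77.7 in the other p53-/- libraries, 78.8, 59.1 and 64.9 in p53+/+ and 103, 65.9 and 62.3 in p53R248W/+ libraries.

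Other genes of the ubiquitin and proteasome pathway were read by role. None of 10 shuttle factors and receptors, 6 proteasome-bound deubiquitinases and ligases, 7 tested factors of assembly, inhibition and localization, 8 regulators of proteasome gene transcription, 18 activating and conjugating enzymes and 8 tested genes of the p97 segregase passed the adjusted threshold of edgeR in any of the 3 comparisons. The median log2 fold change of the activating and conjugating enzymes, the largest of these groups, was 0.09 in p53R248W/+ against p53+/+, 0.15 in p53-/- against p53+/+ and -0.05 in p53R248W/+ against p53-/-. An unadjusted p below 0.05 was reached by 0, 3 and 3 of these 18 genes, against 0.958%, 23.4% and 21% of all genes, and no result about these enzymes is read from it. The shuttle factors and receptors, which carry ubiquitinated proteins to the proteasome, had medians of -0.05, -0.16 and 0.09 in the same order, with 0, 1 and 2 of 10 genes at an unadjusted p below 0.05 against the same shares of all genes.

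Among 26 genes of interferon response and antigen processing, of which Psmb8, Psmb9, Psmb10, Psme1 and Psme2 are known partners, 0 passed in p53R248W/+ and 1 fell in p53-/- against p53+/+, where 2.25% of all genes were called lower. It was Irf8, a factor of monocyte and dendritic cell development as well as of interferon responses, with 218, 249.9 and 235 CPM in p53+/+, 298, 365 and 237 in p53R248W/+ and 108, 82.8 and 125 in p53-/- libraries (log2 fold change -1.15 ± 0.20; edgeR adjusted p = 0.0183). Irf8 was also called higher in p53R248W/+ than in p53-/- (1.51 ± 0.21; edgeR adjusted p = 0.00445), and this call held in all 9 fits without 1 library, while the call against p53+/+ held in 5 of them. Mpo, the myeloperoxidase gene of granulocyte precursors, was higher in p53R248W/+ than in p53-/- by 1.76 on the log2 scale (edgeR adjusted p = 0.00778). The granulocyte and monocyte marker sum given above, mostly Mpo, was lower in every p53-/- library than in the other 6. All 6 markers in the table had log2 fold changes below 0 in p53-/- against p53+/+, with 0 called. Single libraries went the other way. Elane had 384 CPM in p53-/- #2, its highest value in any library, against 85.2 and 99.8 in the other p53-/- libraries. The part of this sum in the calls of Irf8 was not tested. Fewer cells of a type and less RNA per cell cannot be told apart in these bulk samples.

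Of 14 heat shock and proteotoxic stress genes tested, 2 were called lower in p53-/- against p53+/+. The same 2 were called higher in p53R248W/+ than in p53-/-, with 0 called in p53R248W/+ against p53+/+. Of all genes, 2.25% were called lower in the first of these comparisons and 2.34% higher in the second. The list was split in direction: in p53-/- against p53+/+, 8 of the 14 genes were below 0 and 6 above. The highest was Chordc1 at 0.75, which did not pass (edgeR adjusted p = 0.0685). Hsp90aa1, the inducible Hsp90 chaperone, had 521, 564 and 864 CPM in p53+/+, 695, 734 and 629 in p53R248W/+ and 331, 388 and 276 in p53-/- libraries (log2 fold change against p53+/+ -0.97 ± 0.21; edgeR adjusted p = 0.0340). Hspa1a, the inducible Hsp70, had 2.37, 34.2 and 99.4 CPM in p53+/+, 4.60, 17.6 and 82.1 in p53R248W/+ and 0.707, 0.994 and 0.884 in p53-/- libraries (log2 fold change -5.70 ± 1.30; edgeR adjusted p = 0.0393), and the p53+/+ and p53R248W/+ libraries differed among themselves far more than the null libraries did. Most of the 7 proliferation markers were not called in p53-/- against p53+/+, such as Ccnb1 at -0.65 and Pcna at -0.005. Of the 7, Top2a and Mki67 were called lower (log2 fold changes of -1.64 and -2.34, edgeR adjusted p = 0.0234 and 0.0255). Each of these 4 calls passed in 4 or 5 of the 9 fits without 1 library, and those of Hspa1a and Mki67 did not pass in limma-voom. In p53R248W/+ against p53-/- the call of Hsp90aa1 passed in 4 and that of Hspa1a in 2 of these 9 fits, and Hspa1a did not pass in limma-voom.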

How the data were processed

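RNA-seq of LSKs from 3 genotypes (3 libraries each) was analysed; the 2 H3K27me3 ChIP-seq samples were not used here. The authors aligned reads to mm10 and deposited raw counts per gene; the submitters' processing notes name STAR 2.5.2b, featureCounts (Subread 1.5.0) and edgeR. Labels and methods name different library kits. The deposited log2 fold change and p-value columns hold the authors' own comparisons and were not used.

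Counts of 18021375 to 29750702 per library were filtered (filterByExpr, 12625 of 12647 genes kept), scaled by TMM and fitted in 1 quasi-likelihood model of 9 libraries in edgeR 4.0.16 (R 4.3.3), with Benjamini-Hochberg adjustment over all genes and a threshold of 0.05. CPM used TMM-scaled library sizes, and log2(CPM + 1) was used for deviations from gene means. DESeq2 1.42.0, limma 3.58.1, other scalings and filters, a replicate block and fits without 1 library were alternatives. The replicate numbers were not taken as a pairing. Scripts were tested on simulated data.

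Named genes were those past the threshold, the catalytic pairs, and in each role (base chaperones counted with the base) the extremes of fold change and level. Members and lists were chosen with earlier results of these data known. One result of the pathway lists is not reported here.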

Additional observations from a re-analysis of the deposited data

How the results depend on the processing

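Alternatives to the main fit were DESeq2, limma-voom, other scaling factors, no filter, a filter of 10 counts in every library and the replicate block. Fits to the 6 libraries compared and a threshold of 0.1 were also used. Each of these kept 0 proteasome genes called in all 3 comparisons. Each also kept the direction of every proteasome gene whose log2 fold change is given above. Psmf1, at -0.0020 in p53-/- against p53+/+, turned to 0.0070 with DESeq2 and with its size factors in edgeR. A gene-length trend, removed after seeing the data, was applied only to the median log2 fold change of the members. That median moved by less than 0.244, the pooled SD of the library medians, in each comparison. This bound exceeds the medians themselves, 0.07, 0.01 and 0.04, so it does not show whether their size or sign was kept. Calls and directions of single genes were not recomputed. Deviations of same-numbered p53+/+ and p53R248W/+ libraries correlated at 0.47 and 0.62 for #1 and #2 and at 0.04 for #3. Those with p53-/- libraries correlated at -0.17 to 0.22. Not every pair passed 0.1, so the numbers were not taken as a pairing. The correlations with p53-/- libraries do not bear on a pairing of p53+/+ with p53R248W/+ libraries. The deposited names of same-numbered p53+/+ and p53R248W/+ libraries share their form, and the p53-/- libraries are named in another form. Whether any libraries were prepared together or apart is not given in the sources used here, and its part was not tested. With the replicate block 0 proteasome genes were called and 2, 882 and 672 of all genes tested, against 1, 442 and 434 without it. DESeq2 called 6, 1552 and 1325 of all genes, the strict filter 0, 574 and 485, and fits to the libraries compared 1, 894 and 208. Of all-gene calls, p53-/- against p53+/+ ranged from 37 to 1485 and p53R248W/+ against p53-/- from 77 to 1559 when 1 library was left out, the highest in both without p53R248W/+ #1.

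Leaving out 1 library kept 0 members called, except that Psmd5 was lower in p53R248W/+ than in p53-/- without p53R248W/+ #1 (0 to 1 members lower). The median log2 fold change ranged from -0.17 to 0.18 (p53R248W/+ against p53+/+), -0.11 to 0.11 (p53-/- against p53+/+) and -0.19 to 0.17 (p53R248W/+ against p53-/-). The exact p of Psmb10 over Psmb7 ranged from 0.0143 without p53-/- #1 to 0.868 without p53-/- #2.

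Directions that reversed without 1 library, as log2 fold changes for p53R248W/+ against p53+/+, were Psma3 (-0.29 to 0.18), Psmb2 (-0.23 to 0.16), Psmb6 (-0.19 to 0.29), Psmb8 (-0.12 to 0.30), Psmb9 (-0.072 to 0.34), Psmb10 (-0.17 to 0.21), Psmc5 (-0.21 to 0.10), Psmd14 (-0.35 to 0.23), Psmd10 (-0.089 to 0.32), Psme1 (-0.032 to 0.25), Psmg2 (-0.20 to 0.13) and Psmg4 (-0.084 to 0.42). For p53-/- against p53+/+ they were Psmb2 (-0.054 to 0.17), Psmb9 (-0.071 to 0.22), Psmb10 (-0.014 to 0.29), Psmd14 (-0.0079 to 0.21), Psme2 (-0.15 to 0.15) and Psmg1 (-0.047 to 0.26). For p53R248W/+ against p53-/- they were Psma5 (-0.47 to 0.075), Psmb7 (-0.26 to 0.17), Psmb9 (-0.17 to 0.27), Psmb10 (-0.37 to 0.092), Psmd6 (-0.36 to 0.076), Psme3 (-0.20 to 0.047) and Psmg1 (-0.38 to 0.057). The cause was not tested. With 3 libraries per genotype, the 95% interval of a member's log2 fold change reached a median of 0.47 to either side, which limits what could be detected.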
